A study of Mus musculus with 12 samples.

Results

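The nuclear genes that encode the 5 enzyme complexes of oxidative phosphorylation were measured in mouse ovaries after dietary vitamin D deficiency at different ages. Genes were taken by name from the transcript probes of the array, with Nduf names for complex I, Sdha to Sdhd for complex II, Uqcr names for complex III, Cox4 to Cox8 names for complex IV and Atp5 names for complex V. The rule found 85 genes of the 30175 on the array: 37 of complex I, 4 of complex II, 8 of complex III, 19 of complex IV and 17 of complex V. The brightest probe stood for each gene. Of the 85, 74 could be tested: 30 of complex I, 4 of complex II, 8 of complex III, 16 of complex IV and 16 of complex V. Cox7b2, Cox8b and Cox8c, isoform genes of complex IV known from testis or striated muscle, were not well above background. The other 8 (Ndufa4, Ndufa5, Ndufa6, Ndufa9, Ndufa12, Ndufs7, Ndufv3 and Atp5o) were bright but had too few values once spots that the scanner software set aside as outliers were left out. The rule also took in 4 genes that are not subunits in the strict sense: Cox4nb, whose current symbol is Emc8, Atp5sl (Dmac2), Atp5s (Dmac2l) and Cox7a2l, which helps respiratory complexes bind each other. Ndufa4, named for complex I, is now counted with complex IV.

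All 12 mice were 2-month-old C57BL/6J females, 4 per diet group, and the series design calls the females biological replicates. Control mice received a normal diet. Early-life mice received a diet deficient in vitamin D in early life, and peripubertal mice received it around puberty. RNA came from whole minced ovaries, so that fewer cells of a type and less RNA per cell cannot be told apart. The letters C, E and P with a replicate number stand for single control, early-life and peripubertal mice. A two-colour array carried 2 mice of the same group, the odd number in Cy3 and the even number in Cy5, on 6 arrays in all. Replicates 1 and 2 of a group shared an array, and so did 3 and 4, so that diet varied only between arrays. Values are log2 intensities adjusted for dye, and a difference of 1 is a doubling. A gene was called changed at a Benjamini-Hochberg adjusted p under 0.05 over the 18340 genes tested with limma.

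Oxidative phosphorylation passes electrons from NADH and succinate through complexes I and II to coenzyme Q, then through complex III, cytochrome c and complex IV to oxygen. Complexes I, III and IV pump protons across the inner mitochondrial membrane, and complex V, the ATP synthase, uses their return to make ATP. Complex II is at the same time an enzyme of the tricarboxylic acid cycle and pumps no protons. In the ovary, oocytes depend on mitochondrial ATP, and steroid-making cells start hormone synthesis inside their mitochondria.

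The names of the control and early-life arrays disagreed between the deposited files. Each of the 8 columns that the deposited value table gives to these groups matched a scanner channel of the opposite group almost exactly (r at least 0.99977 over probes), and its own channel less well (0.964 to 0.985). The 4 peripubertal columns matched no scanner channel above 0.897. Sample names here follow the scanner files. Exchanging the names of these arrays turns the sign of every difference between early life and control. It also gives peripubertal against control the values of early life against peripubertal with their sign turned. The values of early life against peripubertal are therefore printed for each complex and for the subunit genes given sample by sample. They are not printed for every other gene or list. Slide 1 held all control and early-life mice and slide 2 all peripubertal mice, so an effect of slide cannot be told apart from one of this diet.

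The median signal was 6.85 to 9.49 times the median background in the 12 channels. Precision is limited by there being 4 mice a group, in pairs that shared an array. All 7 granulosa cell markers and all 7 oocyte markers on the array were well above background. Markers of tissue next to the ovary or between its cells also differed between samples, and their part in the results below was not tested. The mean deviation of the 7 oviduct epithelium markers from their own 12-sample means was -0.65 to 3.14 in early-life samples, -1.21 to 1.29 in controls and -2.19 to -0.94 in peripubertal samples. In the same order of groups, it was for 5 of 6 macrophage markers -0.87 to -0.52, -0.38 to 0.45 and 0.19 to 0.93. For 6 of 7 adipocyte markers (Lep was not well above background) it was 0.088 to 3.10, -1.97 to -0.41 and -1.19 to 0.63. For 5 of 6 luteal cell markers, genes of steroid-making cells, it was -0.72 to -0.0098, -1.01 to 1.00 and -0.25 to 1.48. Single luteal markers went both ways against control, from -2.16 to 0.20 in early life (median -0.20) and from -0.92 to 4.19 in peripubertal ovaries (median 0.051). For 6 smooth muscle markers the mean deviation was -0.52 to -0.19, -0.34 to 0.63 and -0.12 to 0.81. For 5 endothelium markers it was -0.26 to -0.019, -0.048 to 0.077 and 0.0071 to 0.27, and for 4 red blood cell markers -0.45 to 1.09, -1.55 to 0.031 and -0.36 to 0.79.

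By the names of the scanner files, most subunit genes were measured slightly lower in early-life and in peripubertal ovaries than in control ovaries. In either comparison 0 passed the limma test. In early life against control, 58 of 74 genes were lower and 16 higher, with a median difference of -0.12, where 54.4% of all genes tested were lower and their median was -0.024. In peripubertal against control, 58 of 74 were lower and 16 higher, with a median of -0.12, where 48.2% of all genes were lower and their median was 0.0086. These comparisons share the control samples. Under the names of the deposited value table, the median in early life against control was 0.28, of opposite sign. Between the diet groups, 36 subunit genes were higher and 38 lower in early life than in peripubertal ovaries, with a median of -0.014 against -0.033 for all genes. Differences between the diet groups are given throughout as early life minus peripubertal.

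By the adjusted test in limma, 0.0218% of all genes were called for early life against control (4 genes) and 0.256% for peripubertal against control (47 genes). At an unadjusted p under 0.05, 14 subunit genes were lower and 1 higher in early life than in control, where the shares of all genes were 9.45% and 4.46%. In peripubertal against control, 13 were lower and 1 higher, where the shares of all genes were 4.84% and 6.49%. All early-life values lay below all control values in 21 subunit genes and above them in 2, where the shares of all genes were 11.7% and 5.32%. All peripubertal values lay below all control values in 16 and above them in 1, where the shares of all genes were 7.27% and 8.79%. Counts of this kind leave out outlier spots, and groups with fewer values stand apart more easily. Such spots were more frequent in subunit gene probes (10.3%) than in all probes above background (4.44%), so these shares are not fully comparable. With the spots kept, early-life and control values overlapped in Atp5l, Cox5a, Cox6b1 and Sdha. As a mean over all subunit genes, the deviation from the 12-sample means was 0.041 to 0.17 in controls, -0.079 to 0.017 in early-life and -0.088 to 0.039 in peripubertal samples, with a pooled SD of 0.053 between mice. The lowest control, C2, stood just above the highest peripubertal sample, P3.

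The subunit genes are bright, and 63 of the 74 (85.1%) lay in the brightest of 5 equal bins of all genes tested. The 3668 genes of that bin had a median difference of -0.010 in early life against control and -1e-04 in peripubertal against control, with 52.6% and 50% lower. The 63 subunit genes within it had medians of -0.11 and -0.11, with 49 lower in each comparison. Without scaling between arrays, the median of all genes in early life against control stood at 0.11, and 79.7% of subunit genes were lower against 32.7% of all genes. Spots left out as outliers made up 10.3% of the values of subunit gene probes and 4.44% of those of all probes above background.

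Complex III was lower in 7 of 8 genes in early life (median -0.17) and in 8 of 8 in peripubertal ovaries (median -0.15). Complex IV was lower in 13 of 16 genes (median -0.18) and 11 of 16 (median -0.16). Complex I was lower in 23 of 30 (median -0.10) and 25 of 30 (median -0.12), and complex V in 13 of 16 (median -0.11) and 12 of 16 (median -0.071). Complex II, the small complex shared with the tricarboxylic acid cycle, had 2 genes lower and 2 higher in each comparison, with medians of -0.022 and 0.029. In early life against peripubertal, complexes I to V were lower in 15 of 30, 3 of 4, 5 of 8, 7 of 16 and 8 of 16 genes. The medians were -0.0029, -0.050, -0.089, 0.011 and -0.019. Differences between complexes were described and not tested.

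Sample by sample, the mean deviation of the 8 complex III genes from their own 12-sample means was 0.096, 0.082, 0.11 and 0.18 in C1 to C4. It was -0.085, -0.011, -0.074 and -0.067 in E1 to E4, and -0.078, -0.087, -0.016 and -0.097 in P1 to P4. All 4 controls thus lay above all 8 other samples in complex III, with C4 highest. For complex I the controls spanned 0.031 to 0.17, but E2 (0.043) and P3 (0.042) lay within that span. In complex IV the controls spanned 0.047 to 0.25, the early-life samples -0.18 to 0.002 and the peripubertal samples -0.084 to 0.043, so that its controls lay above the others by a narrow margin. That margin was lost over the 10 complex IV genes left without tissue-restricted isoforms and genes that are no subunits. For these the controls spanned -0.076 to 0.14, with C3 lowest, the early-life samples -0.12 to 0.011 and the peripubertal samples -0.093 to 0.018. For complex V P3 (0.051) again reached into the control span of 0.031 to 0.13. Complex II did not separate the groups, at -0.061 to 0.004 in controls, -0.014 to 0.041 in early life and -0.062 to 0.063 in peripubertal samples. Its means rest on different genes in different samples. Sdha had no value in C1, C2, P3 and P4, and Sdhb none in C1 and P1.

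**Figure D1:**
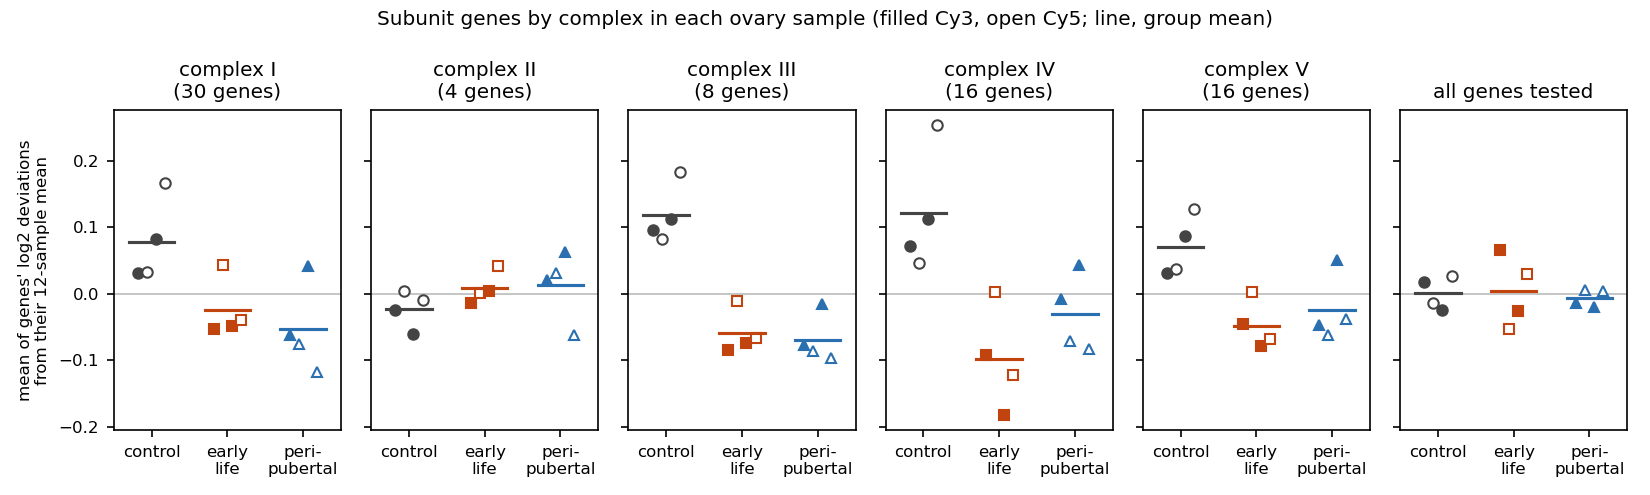
Each point is 1 ovary sample, the y axis is the mean log2 deviation of a complex's genes from their own means over 12 samples, filled points are Cy3 and open points Cy5, and lines are group means. In complex III the control samples (0.082 to 0.18) lie above every other sample, while complex II and all genes tested show no such step. Genes without a value in a sample are left out of its mean, which for complex II leaves different genes in different samples.

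C4 was the control sample farthest up: of its 70 measured subunit genes, 10% lay below their own mean, against 50.7% of all genes in that sample. The shares in C1, C2 and C3 were 34.3%, 31.4% and 22.7%. In early-life samples they were 69.9%, 43.8%, 73.0% and 65.3%, and in peripubertal samples 57.8%, 70.4%, 45.1% and 81.2%. E2 and P3 stood nearest to the controls within their groups. Without C4, the median of the subunit genes in early life against control was -0.097.

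**Figure D2:**
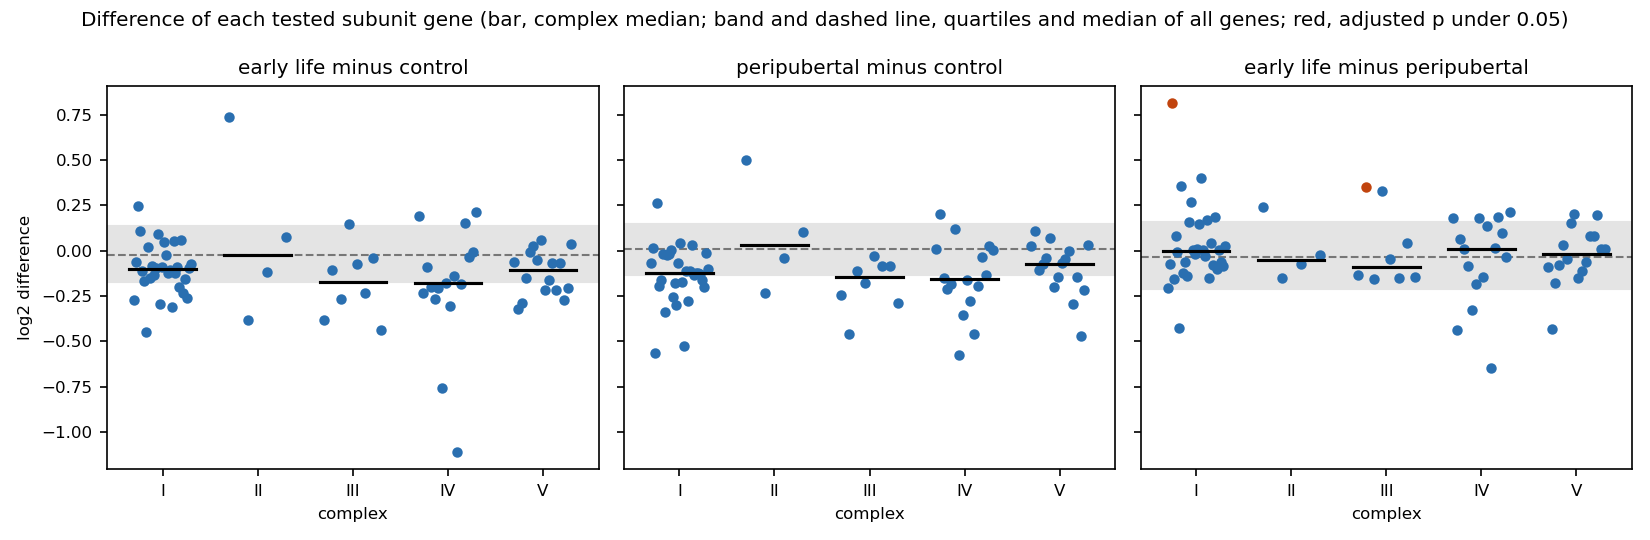
Each point is the log2 difference of 1 tested subunit gene by complex, in a panel per comparison, black bars are complex medians, and the grey band and dashed line are the quartiles and median of all 18340 genes; red marks adjusted p under 0.05. The medians of complexes I, III, IV and V lie below the line of all genes in the first and second panel, and the 2 red genes in the last panel are Ndufa11 and Uqcr11.

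In early-life against peripubertal ovaries, 2 subunit genes were called, both higher in early life, where 2.67% of all genes were called (489 genes). At an unadjusted p under 0.05, 5 subunit genes were higher and 2 lower, where the shares of all genes were 8.77% and 15.1%. All early-life values lay above all peripubertal values in 9 subunit genes and below them in 5, where the shares of all genes were 7.92% and 16.5%. The called genes were Ndufa11, an accessory subunit in the membrane arm of complex I, and Uqcr11, the smallest subunit of complex III.

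Ndufa11 was measured at 12.08, 11.85, 12.34 and 12.38 in E1 to E4 and at 11.23, 11.32 and 11.46 in P1 to P3, with the P4 spot set aside. Controls were at 11.81, 11.80, 11.92 and 12.11. All peripubertal values lay below all others, and E1 and E2 fell among the controls. The difference between early life and peripubertal was 0.81 ± 0.15 (SE, limma adjusted p = 0.038), a fold of 1.76. Against control, early life differed by 0.25 ± 0.15 (limma adjusted p = 0.46) and peripubertal by -0.56 ± 0.15 (limma adjusted p = 0.24). With the P4 spot kept (11.65), the first difference was 0.74 ± 0.15 (limma adjusted p = 0.045). The call held without C4 (limma adjusted p = 0.040) and without E2 (0.023), and was lost without any other single sample, with adjusted p up to 0.12 without E3. Its probe lies at chr17:56857241-56857300 of mm9 on the plus strand, and its first 30 bases, shown to identify it, are printed with no base marked.
Ndufa11: ggccgagcaagcccagctaggtatggcgat

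Uqcr11 was measured by 2 probes that overlap by 52 bases and gave different results, so their sequences are shown. The brighter probe, annotated to a cDNA clone, lies at chr10:79865737-79865796 of mm9 on the minus strand. The other, annotated to the RefSeq transcript, is shifted by 8 bases, at chr10:79865745-79865804. In the overlap they differ at 1 base, G16A counted from the 5′ end of the 30-base stretch chr10:79865762-79865791 printed here, with the RefSeq probe's base first and the base that differs in capitals.
Uqcr11, RefSeq probe: tagggctgccttgatGggtgcagcattaaa
Uqcr11, brighter probe: tagggctgccttgatAggtgcagcattaaa

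By the brighter probe Uqcr11 stood at 14.999, 14.98, 14.95 and 14.95 in early-life samples and at 14.58, 14.70, 14.65 and 14.54 in peripubertal samples. Controls were at 15.16, 15.05, 14.99 and 15.11. Every peripubertal value lay below every other value. The difference between early life and peripubertal was 0.35 ± 0.078 (limma adjusted p = 0.047). Peripubertal against control was -0.46 ± 0.078 (limma adjusted p = 0.052), the smallest adjusted p of any subunit gene in that comparison, and early life against control was -0.11 ± 0.078.

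By the RefSeq probe the control values were 14.89, 14.91, 14.94 and 15.02. Early-life values were 14.75, 14.89 and 14.75 in E1, E2 and E4, and peripubertal values 14.87, 14.80, 14.86 and 14.71. Here early-life and peripubertal values overlapped, with a difference of -0.017 ± 0.089, and peripubertal against control was -0.13 ± 0.084. With the scanner software's processed signals the RefSeq probe was the brighter, and early life against peripubertal was -0.0056 ± 0.11 by it and 0.21 ± 0.091 by the other. With the mean of the probes the difference was 0.18 (limma adjusted p = 0.20). Leaving out any sample other than E2 also ended the call, with adjusted p up to 0.15 without E1.

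Among all subunit genes, Uqcr10, a small subunit of complex III, had the smallest p in early life against control. It was at 15.11, 15.08, 15.18 and 15.27 in controls, at 14.73, 14.86, 14.71 and 14.83 in early life and at 15.01, 14.85, 14.97 and 14.83 in peripubertal samples. All controls lay above all 8 other samples, and the differences from control were -0.38 ± 0.091 (limma adjusted p = 0.21) and -0.25 ± 0.091 (0.34). Between the diet groups the difference was -0.13 ± 0.091. The other 2 Uqcr10 probes gave smaller differences in early life, -0.15 ± 0.11 and -0.11 ± 0.088, and -0.17 ± 0.092 and -0.40 ± 0.11 in peripubertal ovaries.

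Uqcrq, also of complex III, was at 15.59, 15.58, 15.73 and 15.88 in controls and 15.16, 15.43, 15.17 and 15.27 in early life, with no overlap. Its peripubertal values, 15.47, 15.25, 15.59 and 15.31, overlapped the controls. The differences were -0.44 ± 0.13 (limma adjusted p = 0.24) and -0.29 ± 0.13 (0.44), and its other probe gave -0.18 ± 0.15 and -0.20 ± 0.18. Between the diet groups the difference was -0.15 ± 0.13. Uqcrb, which helps hold the complex together, was -0.27 ± 0.082 in early life (limma adjusted p = 0.25), but 0.022 ± 0.11 by its other tested probe, and -0.15 ± 0.087 against peripubertal. The Rieske iron-sulfur protein Uqcrfs1, which takes electrons from ubiquinol, was at -0.24 ± 0.11 and -0.087 ± 0.12, and at -0.15 ± 0.12 between the diet groups. The core proteins Uqcrc1 and Uqcrc2 were at 0.15 ± 0.10 and -0.075 ± 0.064 in early life, and Uqcrc1 was 0.33 ± 0.11 above peripubertal (limma adjusted p = 0.13). Uqcrh, the hinge protein beside cytochrome c1, was at -0.043 ± 0.081 and -0.086 ± 0.077. Between the diet groups Uqcrc2 was at -0.044 ± 0.064 and Uqcrh at 0.044 ± 0.081.

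The probes used for Uqcr10 and Sdhb carry the letters of the common polyadenylation signal, AATAAA, and these stretches are shown because that signal marks transcript ends, with its letters in capitals. They lie on mm9 at chr11:4601982-4602011 (minus) and chr4:140535078-140535107 (plus).
Uqcr10: cagctgtcagcaAATAAAtgcaaagtgctc
Sdhb: tacagcatatgtAATAAAcatttaagataa
On the probe strand, AATAAA or ATTAAA was present in 32 of the 74 probes used for subunit genes (43.2%) and in 19.3% of the probes of all genes tested. No exon or UTR annotation of mm9 was used here.

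The catalytic subunits of complex II were measured with opposite signs, and neither passed the test. Sdha, the flavoprotein that oxidises succinate, was at 12.99 and 13.17 in C3 and C4, at 13.93, 13.72, 13.88 and 13.75 in early life and at 13.50 and 13.66 in P1 and P2. The groups did not overlap, and early life was 0.74 ± 0.15 above control (limma adjusted p = 0.21) and peripubertal 0.50 ± 0.17 above it (0.37). The spots of C1, C2, P3 and P4 were set aside as outliers. With them kept, C1 and C2 read 13.63 and 13.73, well above C3 and C4, which were on the other control array. The differences were then 0.44 ± 0.18 and 0.11 ± 0.18. Early life against peripubertal was 0.24 ± 0.15 without these spots and 0.33 ± 0.18 with them.

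Sdhb, the iron-sulfur subunit, was at 14.42, 14.56 and 14.66 in C2 to C4, at 14.11, 14.23, 14.08 and 14.20 in early life and at 14.28, 14.44 and 14.21 in P2 to P4. All early-life values lay below the controls, at -0.38 ± 0.11 (limma adjusted p = 0.25), and peripubertal stood at -0.23 ± 0.12. With the outlier spots of C1 and P1 kept, the differences were -0.31 ± 0.12 and -0.16 ± 0.12. Its other probe, with all 12 values, gave -0.14 ± 0.13 and -0.16 ± 0.13. Between the diet groups the difference was -0.15 ± 0.11. The membrane anchors that bind coenzyme Q were close to control. Sdhc was at 13.70, 13.63, 13.76 and 13.71 in controls, 13.55, 13.71, 13.47 and 13.59 in early life and 13.65, 13.64, 13.75 and 13.58 in peripubertal samples, with differences of -0.12 ± 0.089 and -0.043 ± 0.089. Sdhd was at 13.43, 13.47, 13.51 and 13.49 in controls, 13.43, 13.42, 13.66 and 13.70 in early life and 13.67, 13.61, 13.50 and 13.53 in peripubertal samples, at 0.077 ± 0.089 and 0.10 ± 0.089. With the processed signals both Sdhd differences had the opposite sign, -0.069 and -0.11. Between the diet groups Sdhc was at -0.076 ± 0.089 and Sdhd at -0.024 ± 0.089. The other Sdhc probe gave -0.12 ± 0.077 in early life and 0.074 ± 0.072 in peripubertal ovaries against control. Between the diet groups that probe gave -0.20 ± 0.077, with the measured early-life values (13.02 to 13.16) below all peripubertal values (13.29 to 13.31).

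**Figure D3:**
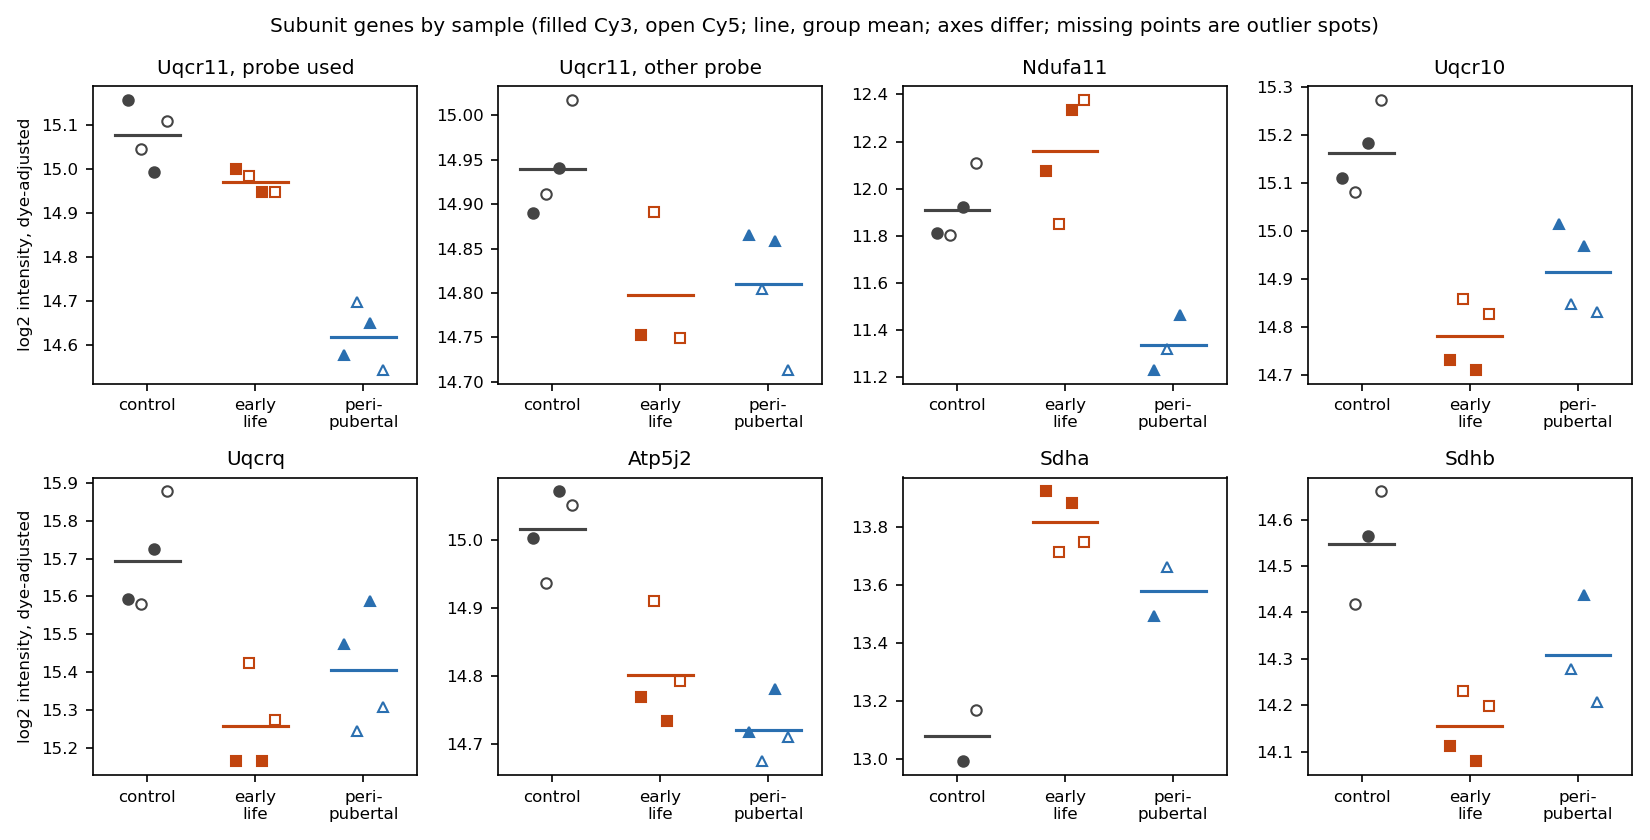
Each panel shows dye-adjusted log2 intensity by sample for 1 gene or probe, filled points Cy3 and open points Cy5, lines group means, with axes that differ between panels and outlier spots left out. Uqcr11 separates peripubertal samples by the probe used (14.54 to 14.70) but not by the other, and Sdha rests on 2 control values.

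In complex I, 7 subunits form the conserved core that carries electrons from NADH to coenzyme Q, and 6 of them were tested. All 6 were lower in early life (median -0.11) and 5 of 6 in peripubertal ovaries (median -0.11), with Ndufs8, an iron-sulfur subunit, at -0.26 ± 0.11 in early life (limma adjusted p = 0.32) and -0.061 ± 0.11 against peripubertal. The 23 accessory subunits other than Ndufa4l2 were lower in 16 and in 19 genes, with medians of -0.098 and -0.13. Besides Ndufa11, the accessory subunits with unadjusted p under 0.05 against control were Ndufb4 (-0.30 ± 0.11 in each comparison), Ndufs5 (-0.23 ± 0.096 in early life) and Ndufb2 (-0.26 ± 0.088 in peripubertal ovaries). Early life against peripubertal was 0.0055 ± 0.11 for Ndufb4, -0.10 ± 0.096 for Ndufs5 and 0.16 ± 0.088 for Ndufb2. Ndufa13, an accessory subunit also known as Grim19, was among the 3 higher subunit genes with the smallest p in peripubertal ovaries. It stood at 15.95, 15.91, 15.50 and 15.72 in controls, 15.91, 15.90, 15.77 and 15.94 in early life and 15.99, 15.85, 16.24 and 16.06 in peripubertal samples, at 0.26 ± 0.13 (limma adjusted p = 0.49). Its control and peripubertal values overlapped, and early life against peripubertal was -0.15 ± 0.13.

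Among the 8 genes with too few values, the differences were also computed with the outlier spots kept. Atp5o, a stalk subunit of complex V, was at 0.46 ± 0.17 in early life, the largest of these, and at 0.022 ± 0.17 in peripubertal ovaries. Ndufa4 was at -0.11 ± 0.13 and -0.33 ± 0.13, and Ndufa9 at 0.096 ± 0.19 and 0.38 ± 0.19. Ndufa6 was at 0.29 ± 0.17 and -0.019 ± 0.17, and Ndufs7 at 0.040 ± 0.093 and -0.075 ± 0.093. Ndufa5 was at -0.077 ± 0.086 and -0.056 ± 0.086, and Ndufa12 at -0.012 ± 0.071 and -0.16 ± 0.071. The outlier spots followed the groups in some genes. Without them Ndufa5 and Ndufa6 had values only in early-life samples, and Ndufa9 had none there. Ndufv3, an accessory subunit at the NADH-binding end of complex I, was at -0.25 ± 0.12 and -0.26 ± 0.12 by its brightest probe. Its other 2 probes, with all 12 values, had the opposite sign in peripubertal ovaries, at 0.22 ± 0.13 and 0.12 ± 0.076. In early life they were at -0.29 ± 0.13 and -0.14 ± 0.076, and in early life against peripubertal at -0.51 ± 0.13 and -0.26 ± 0.076.

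In complex V, Atp5j2, the f subunit of the membrane part, was at 15.003, 14.94, 15.07 and 15.05 in controls, 14.77, 14.91, 14.73 and 14.79 in early life and 14.72, 14.67, 14.78 and 14.71 in peripubertal samples. All controls lay above all other samples, and the differences were -0.22 ± 0.077 (limma adjusted p = 0.29) and -0.30 ± 0.077 (0.21), with 0.081 ± 0.077 between the diet groups. The other Atp5j2 probe gave -0.22 ± 0.088 in early life but -0.024 ± 0.088 in peripubertal ovaries, so that the peripubertal difference rests on the brighter probe. Atp5b, the catalytic beta subunit, was at 16.24, 16.56 and 16.47 in E1, E2 and E4, against 16.67, 16.71, 16.82 and 16.81 in controls and 16.99, 16.76, 16.91 and 16.77 in peripubertal samples. It was -0.43 ± 0.12 against peripubertal (limma adjusted p = 0.093) and -0.32 ± 0.12 against control (0.32). Early-life values lay below all others. Atp5l, the g subunit, was at -0.47 ± 0.16 in peripubertal against control with 2 control values, and at -0.28 ± 0.14 with the outlier spots kept. By its other tested probes it was at -0.25 ± 0.12 to -0.051 ± 0.12, and early life against peripubertal was 0.20 ± 0.14 by the probe used. Atp5l has 6 probes, and those tested spread more widely than those of any other subunit gene with several tested probes in both comparisons with control, by 0.41 and 0.42.

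The c subunit, which forms the rotating ring, is encoded by 3 genes that give the same mature protein. Atp5g1 was at 15.57, 15.59, 15.52 and 15.70 in controls, 15.62, 15.51, 15.49 and 15.55 in early life and 15.36, 15.34, 15.50 and 15.38 in peripubertal samples, which lay below all controls, at -0.20 ± 0.082 (limma adjusted p = 0.39). Its other probe gave 0.18 ± 0.24, and early life against peripubertal was 0.15 ± 0.082. Atp5g2 was at 16.34, 16.33, 16.36 and 16.37 in controls, 16.40, 16.42, 16.39 and 16.42 in early life and 16.23, 16.12, 16.21 and 16.27 in peripubertal samples. Its 3 groups did not overlap, with early life 0.20 ± 0.067 above peripubertal (limma adjusted p = 0.12) and 0.057 ± 0.067 above control. By its other probe the groups overlapped: E3 and E4 read 15.40 and 15.28, controls 15.12 to 15.45 and peripubertal samples 14.95 to 15.44. That probe put early life 0.14 ± 0.17 above peripubertal and 0.030 ± 0.17 above control. Atp5g3 was at 16.29, 16.43, 16.44 and 16.54 in controls, 16.16, 16.29, 16.27 and 16.09 in early life and 16.24, 16.29, 16.56 and 16.32 in peripubertal samples, at -0.22 ± 0.11 and -0.069 ± 0.11, with -0.15 ± 0.11 between the diet groups, and its groups overlapped.

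Complex IV has subunits with a widespread and a tissue-restricted isoform. The isoforms Cox6a2 and Cox7a1, best known from heart and skeletal muscle, had the lowest differences of any subunit gene in early life. Cox6a2 was the dimmest subunit gene tested, with a mean of 8.04. It was well above background in all 12 samples, while the mean was 6.35 for Cox8c and 6.93 for Cox8b, which were not. Cox6a2 was at 8.29, 8.02, 8.80 and 8.82 in controls, 7.70, 7.95, 7.63 and 7.61 in early life and 8.10, 8.05, 7.69 and 7.78 in peripubertal samples. Early life lay below all controls, at -0.76 ± 0.20 (limma adjusted p = 0.21), and peripubertal overlapped them at -0.57 ± 0.20 (0.31). Its widespread counterpart Cox6a1 was at 17.45, 17.43, 17.06 and 17.64 in controls, 17.38, 17.39, 16.92 and 17.05 in early life and 17.59, 17.31, 17.79 and 17.37 in peripubertal samples, with overlap and differences of -0.21 ± 0.20 and 0.12 ± 0.20. Early life against peripubertal was -0.18 ± 0.20 for Cox6a2 and -0.33 ± 0.20 for Cox6a1. The difference between isoforms was not tested.

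Cox7a1 ranged most widely among the controls: 10.91, 11.40, 12.12 and 12.91 in C1 to C4. It was at 10.72, 11.35, 10.53 and 10.31 in early life and 11.48, 10.90, 12.11 and 11.005 in peripubertal samples, overlapping in each case, at -1.11 ± 0.50 (limma adjusted p = 0.36) and -0.46 ± 0.50 (0.77). Cox7a2, its widespread counterpart, was at 13.87, 13.77, 13.66 and 13.80 in controls, 13.53, 13.66, 13.55 and 13.62 in early life and 13.59, 13.51, 13.68 and 13.52 in peripubertal samples, at -0.18 ± 0.089 and -0.20 ± 0.089. Early life against peripubertal was -0.65 ± 0.50 for Cox7a1 and 0.014 ± 0.089 for Cox7a2. Of 5 striated muscle markers, Ckm, Mb, Myh4 and Tnnt3 were not well above background in the ovaries, and Acta1 alone was tested.

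Cox4i1, the widespread isoform of the regulatory subunit 4, was at 15.98, 15.87, 15.84 and 16.05 in controls, 16.17, 15.99 and 16.20 in E1, E2 and E4, and 15.91, 16.03, 15.97 and 15.88 in peripubertal samples. It was 0.19 ± 0.11 above control in early life (limma adjusted p = 0.44) and 0.18 ± 0.11 above peripubertal, with overlap. Cox4i2, an isoform known from lung and from low oxygen, was at 9.33, 9.54, 9.77 and 9.54 in controls, 8.91, 9.68 and 9.46 in E1, E3 and E4, and 9.76, 9.63, 9.76 and 9.84 in peripubertal samples. Early life was -0.44 ± 0.20 against peripubertal (limma adjusted p = 0.21), with E3 inside the peripubertal span. Ndufa4l2, a relative of Ndufa4 that is induced by low oxygen, was at 10.09, 10.50, 10.73 and 10.63 in controls, 10.07, 10.26, 9.99 and 9.83 in early life and 10.43, 10.48, 10.68 and 10.29 in peripubertal samples. Early life lay below all peripubertal samples, at -0.43 ± 0.18 (limma adjusted p = 0.18) and overlapped the controls at -0.45 ± 0.18 (0.32).

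Cox6b1, the widespread isoform that joins the monomers of complex IV, was at 11.96, 11.96 and 11.92 in C1, C2 and C4, at 11.71, 11.91, 11.74 and 11.70 in early life and at 11.55, 11.52, 11.70 and 11.58 in peripubertal samples. No group overlapped another without the set-aside spot of C3, although E4 (11.7000) and P3 (11.6992) almost met. With that spot kept, C3 read 11.76, within the early-life span, and P3 (11.72) lay above E4 (11.68). The differences from control were -0.18 ± 0.093 and -0.36 ± 0.093 (limma adjusted p = 0.42 and 0.23), and 0.18 ± 0.088 between the diet groups. Cox6b2, its testis isoform, was at 10.58, 10.24, 10.59 and 10.63 in controls, 10.31, 10.38, 9.98 and 10.13 in early life and 10.33, 10.39, 10.33 and 10.34 in peripubertal samples, at -0.31 ± 0.13 and -0.16 ± 0.13, with -0.15 ± 0.13 between the diet groups. Only C2 kept its controls from standing apart from the other samples. Cox8a, the widespread isoform of the smallest subunit, was at 15.98, 16.06, 15.68 and 16.15 in controls, 16.29 and 16.08 in E1 and E2, and 15.87, 15.75, 16.24 and 16.03 in peripubertal samples, at 0.21 ± 0.21 and 0.0037 ± 0.17, with 0.21 ± 0.21 between the diet groups. With the spots of E3 and E4 kept, the first of these was 0.059 ± 0.18. Its muscle counterpart Cox8b was well above background in 3 of 12 samples. Leaving out the tissue isoforms and the genes that are no subunits, the remaining 10 complex IV genes were lower in 8 and in 6, with medians of -0.16 and -0.16.

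**Figure D4:**
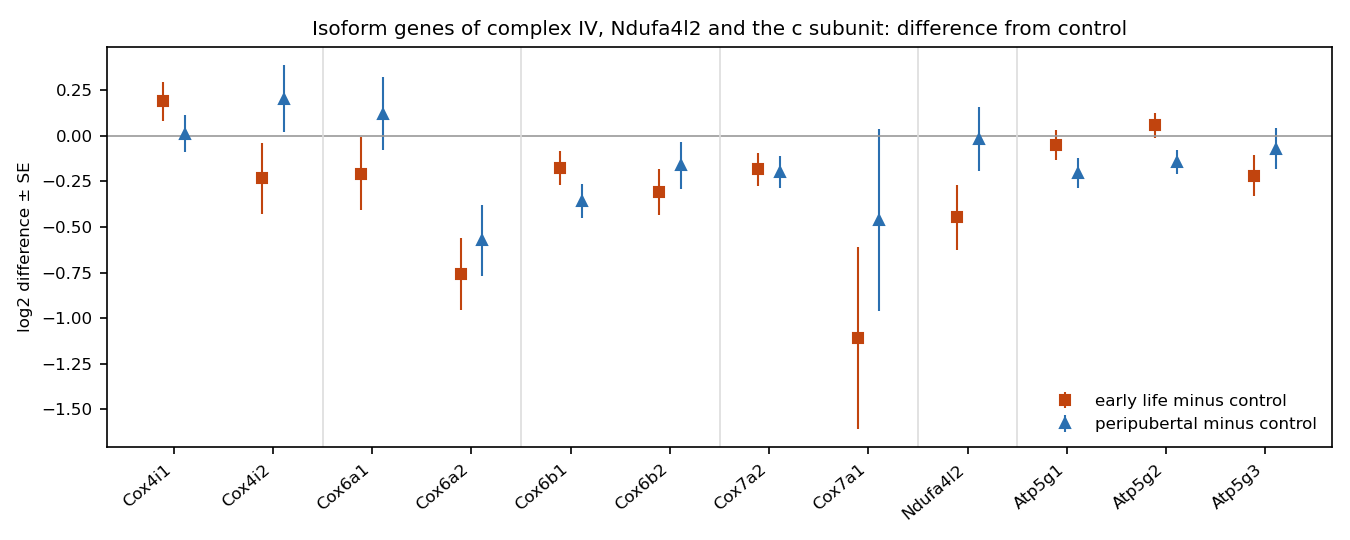
Points are log2 differences from control with their standard errors for isoform genes of complex IV, Ndufa4l2 and the 3 c subunit genes; squares are early life and triangles peripubertal. Cox6a2 (-0.76 and -0.57) and Cox7a1 (-1.11 and -0.46) sit lowest, and Cox7a1 has the widest error bars.

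Several probes were tested for 27 of the subunit genes (62 probes). All probes of a gene shared the sign of the difference in 20 genes for early life against control, 17 for peripubertal against control and 8 for early life against peripubertal. Uqcrc2 alone was printed in 10 spots, whose median SD on an array was 0.30.

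Of the 13 subunit genes encoded by mitochondrial DNA, which is copied and transcribed inside the organelle, 12 were tested. They were lower in 11 genes in early life (median -0.12) and in 9 in peripubertal ovaries (median -0.14), and 0 passed. In early life against peripubertal they were lower in 8 (median -0.037). ATP8 and ATP6, both of complex V, had the smallest p in peripubertal ovaries, at -0.83 ± 0.19 (limma adjusted p = 0.16) and -0.50 ± 0.17 (0.32). Both are read from a shared RNA. In early life CYTB, the complex III subunit, was at -0.34 ± 0.19 and ND1, of complex I, at -0.23 ± 0.17.

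Assembly factors, which help build the complexes but are not part of them, were described from lists chosen by function. The list of complex I also held the acyl carrier protein Ndufab1, which is itself a subunit and which the name rule did not take in. Without it the list was lower in 8 and in 10 of 11 genes (medians -0.12 and -0.075), and in 8 in early life against peripubertal (median -0.078). Those of complex III were lower in 4 and in 5 of 5 (medians -0.29 and -0.17), and those of complex IV in 16 and in 12 of 19 (medians -0.079 and -0.071). Those of complex II were lower in 3 of 4 and those of complex V in 4 and in 3 of 4. In early life against peripubertal, those of complexes II to V were lower in 3, 4, 10 and 3 genes. The gene 2310003L22Rik, now Ndufaf5, whose protein modifies Ndufs7, passed in this group and was lower in early life than in peripubertal ovaries, at -1.02 ± 0.20 (limma adjusted p = 0.036), and stood 1.12 ± 0.20 above control in peripubertal ovaries (0.055). Ndufab1 was at -0.54 ± 0.12 in peripubertal ovaries (limma adjusted p = 0.15) and 0.28 ± 0.12 between the diet groups, and Bcs1l, which inserts the Rieske protein into complex III, at -0.30 ± 0.11 in early life (0.28).

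Proteins of the large mitochondrial ribosome, which translates the mitochondrial subunits, were lower in 33 and in 34 of 39 genes, with medians of -0.086 and -0.072. Mrpl2 was at -0.26 ± 0.073 in early life (limma adjusted p = 0.23) and Mrpl53 at -0.34 ± 0.10 in peripubertal ovaries (0.26). The tricarboxylic acid cycle was lower in 9 and in 7 of 15 genes (medians -0.041 and 0.0036), and the carriers and uncoupling proteins in 4 and in 4 of 7 (medians -0.074 and -0.057). Regulators of mitochondrial biogenesis were lower in 9 and in 7 of 15 (medians -0.056 and 0.013). Among them Ppara, the fatty acid receptor, was lower in early life than in peripubertal ovaries, at -0.50 ± 0.097 (limma adjusted p = 0.036), and Gabpa, the DNA-binding part of NRF2, was at -0.27 ± 0.085 (0.12). The complex III subunit cytochrome c1, Cyc1, was at -0.29 ± 0.099 in early life (limma adjusted p = 0.31).

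Promoters of the subunit genes were searched for short motifs on both strands, in a window from 250 bases before to 50 bases after the start in RefSeq's GRCm38.p6 table, which held 69 of the 85 genes. The ETS motif CCGGAAG, bound by the Gabpa protein among others, was in 15 of 69 (21.7%) and in 9.12% of all 27025 promoters of that length. The NRF1 motif GCATGCGC was in 10 (14.5%) against 2.80%, and the YY1 motif AAGATGGCG in 7 (10.1%) against 1.49%. TCAAGGTCA, of the receptor Esrra, was in 2 (2.90%) against 0.41%, CCAAT in 31 (44.9%) against 37.9%, and TATAAA in 7 (10.1%) against 14.2%. A motif match describes the letters and is no binding site. By complex, CCGGAAG was in 4 of 32 promoters of complex I, 2 of 3 of complex II, 2 of 5 of complex III, 3 of 13 of complex IV and 4 of 16 of complex V. The stretches of Uqcr11, Cox6b1 and Sdhd before their start sites are shown with the motif, or its reverse complement, in capitals. They lie at chr10:80406869-80406898, chr7:30626124-30626153 and chr9:50603877-50603906 of GRCm38.p6, all on the minus strand.
Uqcr11: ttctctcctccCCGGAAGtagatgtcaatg
Cox6b1: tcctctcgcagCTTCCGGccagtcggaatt
Sdhd: ccgtctcctgcCTTCCGGttcacgcttcag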

How the data were processed

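Expression was measured in 12 ovary samples on 6 two-colour arrays. The scanning software was Agilent Feature Extraction 11.0.1.1 and the build of the probe positions mm9, per the file headers. The deposited scanner files give the mean spot and median background intensity, not normalized, and a processed intensity that is background-subtracted and dye-normalized. The deposited value table gives log2 values with each column's median at 0; its scale against the scanner values is a slope of 1.00 for 8 columns, and how it was made is not given in the sources used here.

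Of 44397 features, 1377 controls were left out. In limma 3.58.1 (R 4.3.3, statmod 1.5.0), background was corrected by normexp with an offset of 50, with loess within and Aquantile scaling between arrays, and channels were treated as separate log2 values. Outlier spots were left out. Probes had to exceed background clearly in 4 or more of the 12 samples. The brightest such probe of a gene was kept if each group had at least 2 values; 731 genes had fewer. The model had 3 group means and dye, with the array as random block (correlation 0.288), and was tested on simulated data. Symbols were matched by RefSeq accession for 80 subunit genes and by symbol for 5.

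Members and lists were chosen with earlier results of these data known. Values are given by sample for called genes, the 3 higher and 3 lower members with the smallest p per comparison, complex II and isoform pairs; other values were chosen after being seen. Alternatives were other background, scaling, filter, probe, dye, block and variance settings, each sample left out, the value table and exchanged arrays.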

Additional observations from a re-analysis of the deposited data

Results flagged for a closer look

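Of 80 sets of 4 values tested for a sample far from the others, 2 stood out, where chance marks about 1 in 20. The Cox6b2 value of control sample C2 was 10.24, while the other controls lay between 10.58 and 10.63. The mean deviation of complex I genes in early-life sample E2 was 0.043, while the other early-life samples lay between -0.054 and -0.040.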

How the results depend on the processing

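With the processed signals of the scanner software, early life against control had 18 genes changed, with medians of -0.2207 for subunit genes and -0.2033, -0.1135, -0.2568, -0.2858 and -0.2095 for complexes I to V. Peripubertal against control then had -0.1959 for subunit genes and -0.1008, -0.2132, -0.2362 and -0.1859 for complexes II to V. Early life against peripubertal had 231 genes and 0 subunit genes changed, and complex II was at -0.0127. Uqcr11 was at -0.0057 there and Sdhd at -0.069 and -0.1144 against control, these 3 of opposite sign.

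Without scaling between arrays, 0, 0 and 1 genes were changed in early life against control, peripubertal against control and early life against peripubertal, with 0 subunit genes in the last. The medians were -0.0229, -0.2233 and -0.1575 for complexes II, III and V in peripubertal against control and 0.0078, 0.0927 and 0.0698 for complexes II, IV and V between the diet groups. Quantile scaling gave 0 genes in early life against control, a complex V median of -0.1544 there, and 1 subunit gene between the diet groups. Without a filter, 0 and 19 genes were changed against control, with 1 subunit gene between the diet groups. With probes above background in all 12 samples there were 0 and 13.

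The mean of all probes gave 13, 27 and 320 genes in the 3 comparisons and 1 subunit gene in the last, with medians of 0.0032, 0.022 and -0.0644 for complexes II, III and V. With outlier spots kept there were 1 and 26 genes against control, 1 subunit gene between the diet groups, and -0.1289 for complex III there. Without the array block there were 98, 152 and 2077 genes, and 1 and 4 subunit genes in the last 2 comparisons. Without a dye term there were 28 and 78 genes against control and 1 subunit gene in peripubertal ovaries, as with trend and robust variance (1). That subunit gene was Uqcr11. The replicate block gave 0 and 14 genes against control and 1 subunit gene between the diet groups, Ndufa11. Deviations of same-numbered control and early-life samples correlated at 0.0513 to 0.5219, with 3 of 4 above 0.1, and other same-numbered pairs at -0.3541 to 0.0719, so the numbers were not taken to pair mice. Control and early-life samples alone gave 0 genes.

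Under the names of the deposited value table, early life against control had 16 genes changed and medians of 0.2772 for subunit genes and 0.2647, 0.1695, 0.3516, 0.3069 and 0.2595 for complexes I to V. Sdha (-0.3677), Ndufa11 (-0.1743), Uqcr10 (0.576), Cox6a2 (0.8504), Uqcrq (0.6703), Sdhb (0.4744) and Sdhc (0.2833) turned sign, while Cox4i1 (0.0206) and Sdhd (0.0556) did not. With the arrays exchanged, the medians were 0.1158, and 0.1025, 0.0216, 0.1709, 0.181 and 0.1096 by complex. Peripubertal against control then had 489 genes and 2 subunit genes changed, with 0.0144 for subunit genes and 0.0029, 0.0889, -0.0114 and 0.0188 for complexes I, III, IV and V. Early life against peripubertal had 47 and 0, with 0.118, and 0.123, 0.1468, 0.1569 and 0.0714 for the same complexes. This turn follows from the exchange itself; the cause of the other changes was not tested.

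Leaving out 1 sample gave 0 to 88, 0 to 26 and 2 to 1584 changed genes in the 3 comparisons, highest without E2, C2 and E2, and lowest in the last without E1. Subunit genes changed numbered 0 to 3 between the diet groups. Subunit medians stayed at -0.1392 to -0.0973 in early life and -0.1504 to -0.0984 in peripubertal ovaries against control. Complex V ran from -0.1309 (without P3) to -0.0391 (without P4) in peripubertal ovaries, and complex III from -0.1122 to -0.0333 between the diet groups.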
